A study of Mus musculus with 36 samples.

Results

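Krüppel-like factors (Klf) are zinc finger transcription factors that bind GC-rich and CACCC sequences, and the transcripts of 6 of them, Klf2, Klf3, Klf4, Klf6, Klf10 and Klf11, were followed here through a TGF-β1 time course in mouse blood progenitors. The members were the probe sets whose single gene symbol in the platform annotation was one of these names. Each of the 6 genes had 1 such probe set among 19938 genes tested, and all 6 were measured on all 36 arrays. The cells were multipotent progenitors (MPP) and common dendritic cell progenitors (CDP), grown from mouse bone marrow with cytokines and sorted. Untreated cells (0 h) were set against cells that had received recombinant human TGF-β1 (10 ng/ml) 2, 4, 8, 12 or 24 h earlier, which made 12 groups of 3 biological replicates. The labels gave neither strain nor age. The series holds no untreated group at the later times, so TGF-β1 and time in culture cannot be told apart. The 8 h groups were so called in the titles, while 1 treatment protocol in the labels names 6 h instead.

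TGF-β binds a pair of receptor kinases that phosphorylate Smad proteins, which enter the nucleus and switch target genes on or off. Klf10 and Klf11, first named TIEG1 and TIEG2 for TGF-β-inducible early gene, recruit Sin3 corepressors, and Klf10 is known to repress Smad7 and so prolong Smad signalling. Klf2 keeps T cells and monocytes quiescent, Klf3 is a repressor that works through CtBP, Klf4 is needed for monocyte formation and belongs to the reprogramming factors, and Klf6 is a candidate tumour suppressor that also acts in inflammatory macrophages. Levels are given below as the deposited log2 values, which the submitters' processing notes credit to RMA, a method that corrects background, scales arrays to each other and sums the probes of a gene. A difference of 1 on this scale is a fold of 2. Levels of different genes are not comparable, because each probe set binds with its own strength. A gene is said to have risen or fallen where limma's adjusted p was under 0.01 over all genes, and to be called where the change was also at least 1 on the log2 scale.

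The proximal promoters are shown for the 3 members that fell by 24 h in both cell types, as the members whose change passed in both at that time. The RefSeq promoter table (GRCm38.p6) held 5 of the 6 members, all but Klf10. The sequences cover the 250 bases before the transcription start, 5′ to 3′ on the gene's strand. Capitals mark 3 motifs on either strand. These are the Smad box CAGAC (reverse form GTCTG), the Klf box CACCC (reverse form GGGTG) and the GC box GGGCGG (reverse form CCGCCC).
Klf2, chr8:72318812-72319061, plus strand: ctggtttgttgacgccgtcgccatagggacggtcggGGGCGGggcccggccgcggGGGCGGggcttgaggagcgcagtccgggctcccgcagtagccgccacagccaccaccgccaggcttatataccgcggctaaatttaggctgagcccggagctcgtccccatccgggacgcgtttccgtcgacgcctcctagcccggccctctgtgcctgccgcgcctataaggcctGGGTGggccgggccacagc
Klf3, chr5:64803271-64803520, plus strand: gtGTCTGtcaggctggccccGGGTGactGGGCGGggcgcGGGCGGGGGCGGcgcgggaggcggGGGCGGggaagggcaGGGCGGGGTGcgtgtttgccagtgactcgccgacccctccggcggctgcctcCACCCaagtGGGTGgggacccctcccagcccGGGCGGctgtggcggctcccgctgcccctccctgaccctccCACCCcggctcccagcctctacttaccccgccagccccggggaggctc
Klf4, chr4:55532476-55532725, minus strand: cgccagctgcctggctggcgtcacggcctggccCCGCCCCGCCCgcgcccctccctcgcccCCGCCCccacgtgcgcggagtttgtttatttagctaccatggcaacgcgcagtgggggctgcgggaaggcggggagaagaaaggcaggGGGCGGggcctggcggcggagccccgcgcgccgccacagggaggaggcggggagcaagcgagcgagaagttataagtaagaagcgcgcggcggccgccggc
The Klf3 window held 6 GC boxes, 5 CACCC boxes and 1 Smad box, with 1 GC box running into a GGGTG. The Klf2 window held 2 GC boxes and 1 CACCC box, and the Klf4 window held 4 GC boxes, some of them overlapping, and neither of the other motifs. Klf11 had 4 GC boxes and Klf6 had 1, also with neither of the others. Of 32851 mouse promoter windows of this length, 32.7% held a GC box, 52% a CACCC box and 42.2% a Smad box. The G and C content of the windows was 71.2% for Klf2, 78.4% for Klf3, 74% for Klf4, 64.8% for Klf6 and 76.8% for Klf11, against a median of 52.4% over all windows. The Smad4 palindrome and the cAMP response element were searched as well and had no match in these windows. A match is a run of letters and was not tested for binding.

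None of the 6 genes was called at any time in either cell type. The largest change was 1.75-fold, of Klf4 in CDP at 24 h. Over all genes, 0.271%, 0.416%, 0.657%, 0.737% and 1.2% were called at the 5 times in MPP and 0.326%, 0.702%, 1.27%, 1.86% and 3.14% in CDP. Under the adjusted p alone, 20 of the 30 pairs of a member and a time passed in MPP, where 3.27% to 9.71% of all genes did at the 5 times, and 7 of 30 in CDP, where 1.93% to 19.8% did. At an unadjusted p under 0.05 these counts were 26 and 22. Of all genes, 18.7%, 20.6%, 25.4%, 23.7% and 25.1% had such an unadjusted p at the 5 times in MPP, and 13.3%, 18%, 26.9%, 26.7% and 34.8% in CDP. Klf2, Klf3, Klf4 and Klf6 were the members that fell, Klf10 was the member that rose, and Klf11 passed at no time. The counts moved with the arrays used. In CDP 2 of the 30 pairs passed where replicate 1 was left out of every group and 4 where replicate 2 was. Without CDP 2 h replicate 3 alone, the array on which 11 interferon-stimulated genes averaged 12.66 against 8.01 and 8.05 on the other CDP 2 h arrays, 16 of the 30 pairs passed in CDP. In CDP this average also ran from 8.04 to 10.34 on untreated arrays, 7.89 to 10.34 at 4 h and 8.07 to 9.67 at 24 h. Those arrays stayed in the fit. In MPP the count was 8 of 30 in a fit that did not pair arrays by replicate number, and 5 or 4 of 30 where replicate 1 or replicate 2 was left out of every group. Without that pairing no Klf4 or Klf6 change passed in MPP. Where they had passed, the adjusted p became 0.156 to 0.249 for Klf4 and 0.0107 to 0.147 for Klf6. The 4 h changes of Klf2, Klf3 and Klf10 did not pass then either (adjusted p 0.0316, 0.114 and 0.0166), nor did Klf3 at 8 h (0.0246).

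**Figure D1:**
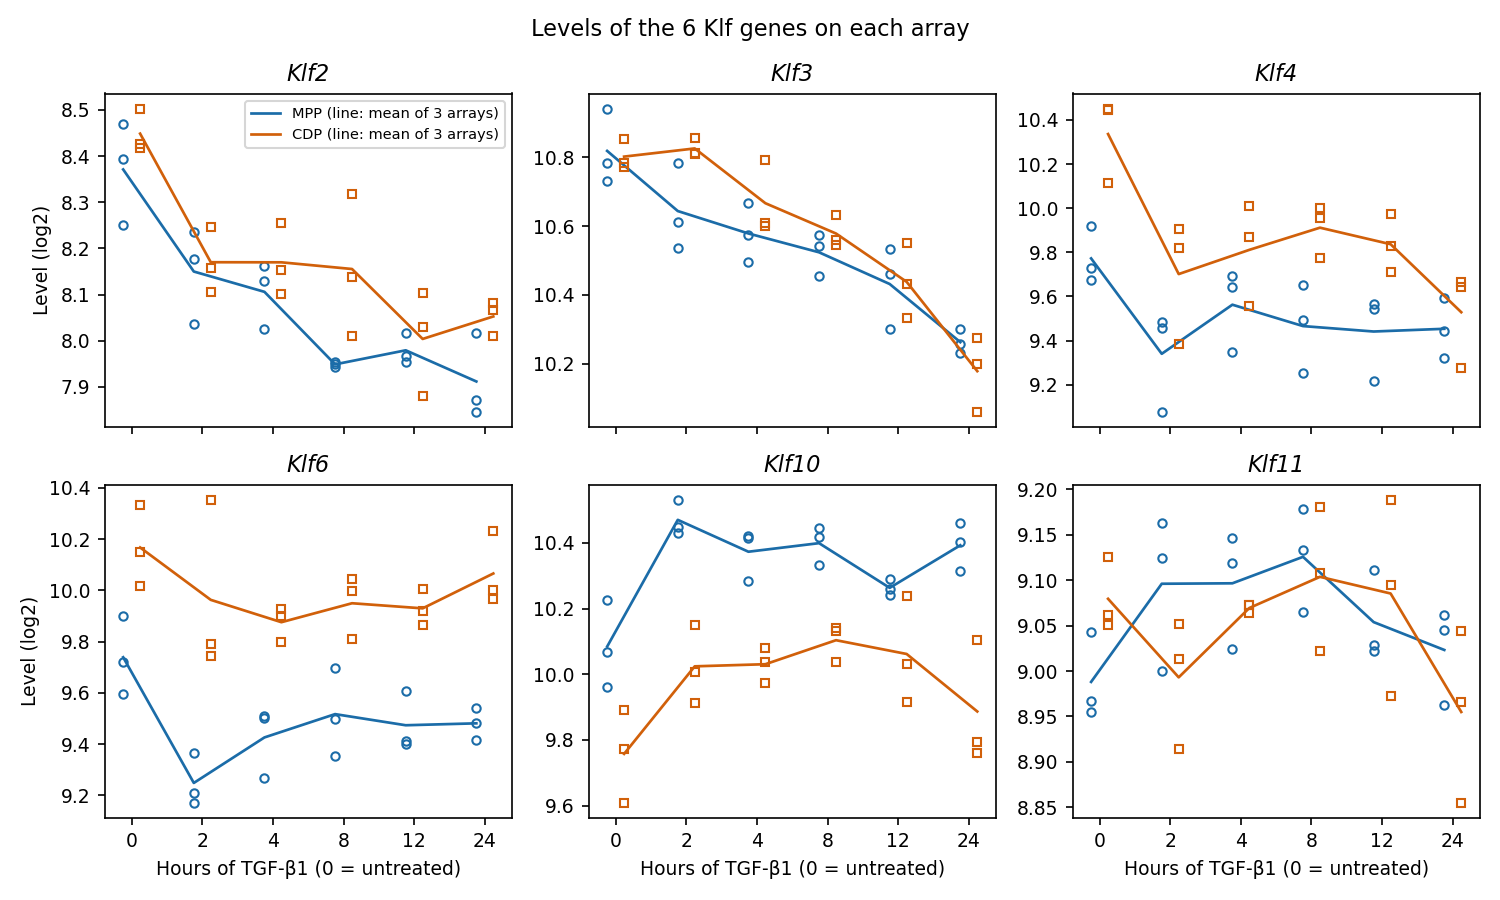
Level (log2) of each of the 6 Klf genes on every array against hours of TGF-β1, with circles for MPP, squares for CDP and lines through the means of 3 arrays. Klf2 and Klf3 declined in both cell types, Klf10 lay above its untreated level in MPP, and Klf11 group means spanned only 0.17.

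In MPP, the first changes were in Klf4, Klf6 and Klf10. At 2 h these 3 of the 6 members passed, where 3.27% of all genes did. Klf6 stood at 9.60, 9.90 and 9.72 in untreated MPP (replicates 1, 2 and 3) and at 9.21, 9.37 and 9.17 at 2 h. All 3 treated values lay below all 3 untreated ones, and Klf6 fell by 0.49 (SE 0.06, adjusted p = 7.58e-05). Klf4 read 9.67, 9.92 and 9.73 before treatment and 9.08, 9.46 and 9.48 at 2 h. Again the groups did not overlap, and Klf4 fell by 0.43 (SE 0.06, adjusted p = 0.000246, or 0.156 without pairing by replicate number). Klf10 rose from 10.07, 10.22 and 9.96 to 10.43, 10.53 and 10.45. Every treated array was above every untreated one, and the rise was 0.39 (SE 0.06, adjusted p = 0.00045), a fold of 1.31. Of all genes, 16.4% had no overlap between 2 h and 0 h in MPP. Klf2 at 2 h differed by -0.22 (95% interval -0.34 to -0.10) and Klf3 by -0.17 (-0.28 to -0.07), and neither passed.

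From 4 h on Klf2 and Klf3 joined the genes that fell in MPP. At 4 h 4 members passed, against 5.04% of all genes: Klf10 rose by 0.29, Klf2 fell by 0.27, Klf3 fell by 0.24 and Klf6 fell by 0.31. The adjusted p of these 4 h changes was between 0.00298 and 0.0069. Each of them was over 0.01 with some of the single MPP arrays left out (for Klf2 up to 0.0436, Klf3 0.0359, Klf6 0.0268 and Klf10 0.0325). None of the 4 passed without pairing by replicate number (adjusted p 0.0166 to 0.114). At 8 h 4 members passed (9.17% of all genes): Klf10 rose by 0.31, Klf2 fell by 0.42, Klf3 fell by 0.29 and Klf4 fell by 0.31. The 3 Klf2 values at 8 h, 7.95, 7.94 and 7.95, were nearly equal and lay below the untreated 8.25, 8.39 and 8.47. At 12 h Klf2, Klf3, Klf4 and Klf6 fell, by 0.39, 0.39, 0.33 and 0.27 (4 of 6 against 8.31%), while Klf10 differed by 0.18 (0.06 to 0.30) and did not pass. The Klf6 arrays of 12 h and 0 h overlapped, and its adjusted p was 0.0103 to 0.0372 with any of 6 single arrays left out. Klf4 was over 0.01 with 3 single arrays left out at 8 h (0.0131 to 0.0194) and with 2 at 12 h (0.0104 and 0.0116).

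At 24 h 5 of the 6 members passed in MPP, against 9.71% of all genes. Klf3 had the largest change. Its levels were 10.78, 10.94 and 10.73 in untreated MPP and 10.26, 10.30 and 10.23 at 24 h. The treated arrays lay below all untreated ones, and Klf3 fell by 0.56 (SE 0.05, adjusted p = 8.2e-07). Klf2 reached 7.87, 8.02 and 7.85 and fell by 0.46 (SE 0.06, adjusted p = 2.6e-05). Klf4 fell by 0.32 (adjusted p = 0.00139) and Klf6 fell by 0.26 (adjusted p = 0.00708). Klf10, at 10.31, 10.40 and 10.46, rose by 0.31 (adjusted p = 0.00123). In all 5 genes the 24 h and untreated arrays did not overlap, as was so for 26.9% of all genes. Leaving out untreated MPP replicate 1 gave Klf4 an adjusted p of 0.0131 and leaving out MPP 24 h replicate 3 gave it 0.0107. For Klf6, leaving out any of 7 single arrays, the 3 of 24 h among them, gave 0.0108 to 0.0448.

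The whole MPP time course gave an F-test across the 5 times that 5 members passed (12.9% of all genes), all but Klf11. Between 2 h and 24 h in MPP, Klf3 fell by a further 0.38 (adjusted p = 7.89e-05) and Klf2 fell by 0.24 (adjusted p = 0.00974), 2 members against 8.35% of all genes. For 14 of the 18 MPP arrays, leaving out that array alone took the Klf2 value over 0.01 (0.0113 to 0.0647). Klf6 was 0.23 higher at 24 h than at 2 h (95% interval 0.10 to 0.36, adjusted p = 0.0154), Klf4 was 0.11 higher (-0.01 to 0.24) and Klf10 was 0.08 lower (-0.20 to 0.04), and none of these passed. The MPP arrays held their lowest Klf6 and Klf4 and their highest Klf10 group mean at 2 h, and their lowest Klf2 and Klf3 at 24 h.

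**Figure D2:**
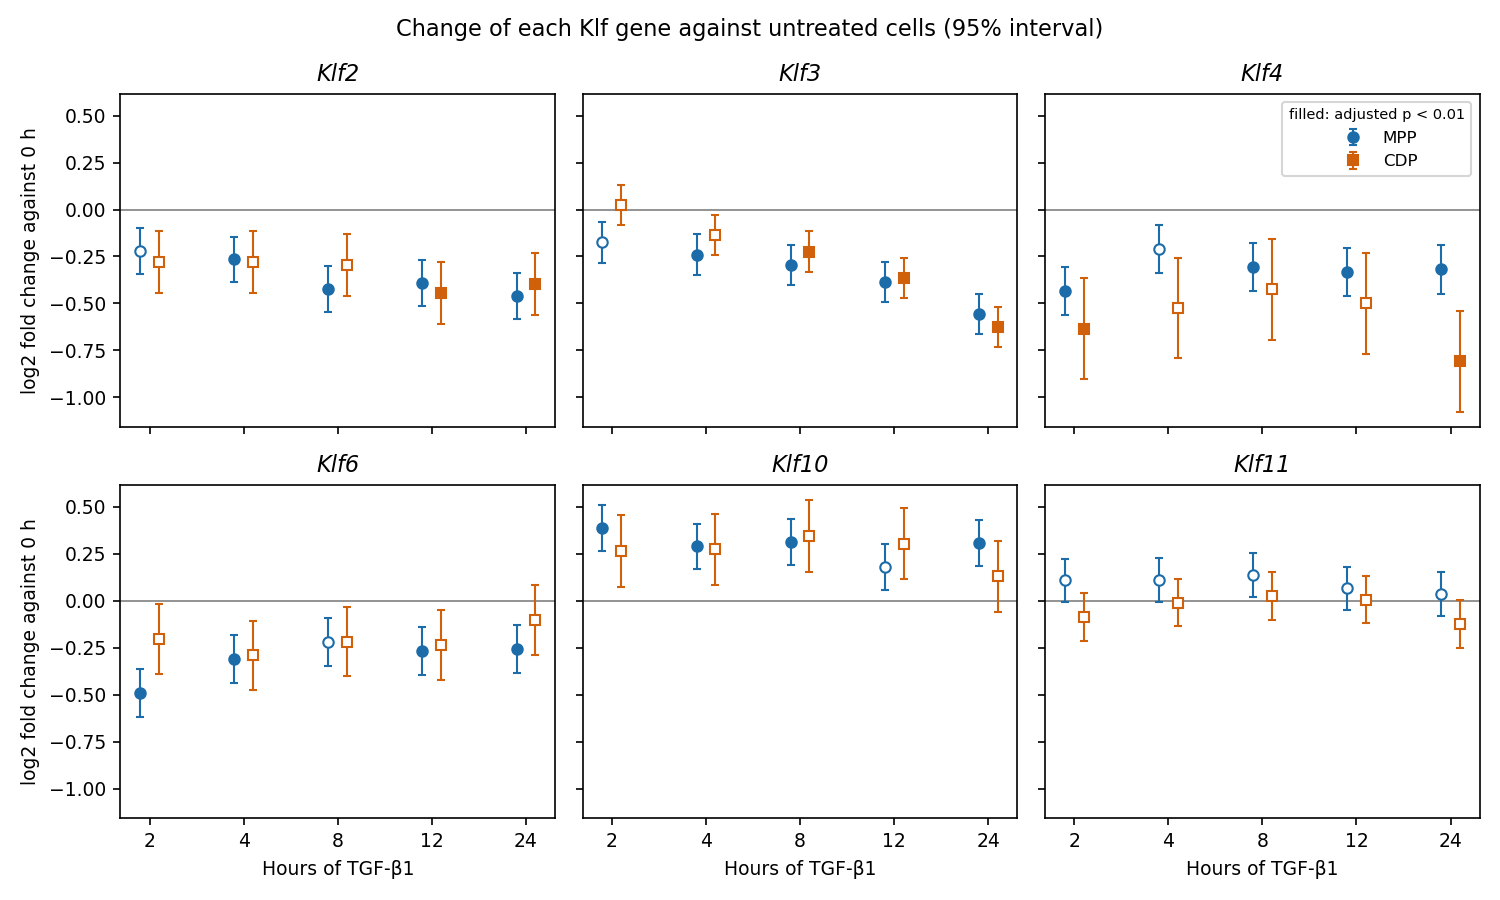
Change (log2) of each Klf gene against untreated cells of the same type at 2, 4, 8, 12 and 24 h of TGF-β1, with 95% intervals, circles for MPP and squares for CDP, filled where the adjusted p was under 0.01. In MPP 20 of 30 points are filled and in CDP 7 of 30, and the widest intervals are those of Klf4 in CDP.

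In CDP the clearest changes were those of Klf3, Klf2 and Klf4 at the later times. Klf3 read 10.78, 10.77 and 10.85 in untreated CDP and 10.81, 10.86 and 10.81 at 2 h, so the first 2 h left the groups overlapping, with a difference of 0.02 (95% interval -0.08 to 0.13). It fell by 0.22 at 8 h (adjusted p = 0.00644, 1 member against 9.51% of all genes) and by 0.36 at 12 h (adjusted p = 0.000113). At 24 h its 3 arrays stood at 10.06, 10.20 and 10.27, below all arrays of the earlier CDP times. That was a change of -0.62 (SE 0.05, adjusted p = 2.92e-07), or 1.54-fold. Between 2 h and 24 h Klf3 fell by 0.65 (adjusted p = 3.06e-07) and was the 1 member to pass, where 18.2% of all genes did. The 8 h value was lost with single arrays left out, among them each untreated CDP array (adjusted p 0.0196 to 0.0425), while the 12 h and 24 h values stayed under 0.01 with any single array left out.

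Klf2 in CDP stood at 8.50, 8.43 and 8.42 before treatment. Its arrays were below these at every time: 8.11, 8.25 and 8.16 at 2 h, and 8.01, 8.07 and 8.08 at 24 h. The change passed at 12 h, with Klf3 (2 members against 11.7% of all genes), when Klf2 fell by 0.44 (SE 0.08, adjusted p = 0.000759). At 24 h Klf2 fell by 0.40 (adjusted p = 0.00111). At 2, 4 and 8 h it differed by -0.28, -0.28 and -0.29, with adjusted p of 0.0627, 0.0357 and 0.0167.

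Klf4 fell by 0.63 in CDP at 2 h (SE 0.12, adjusted p = 0.00904), the 1 member to pass there against 1.93% of all genes. The untreated arrays read 10.11, 10.45 and 10.44 and the 2 h arrays 9.82, 9.90 and 9.38. The lowest of these, 9.38, was replicate 3, without which Klf4 fell by 0.41 (SE 0.07, adjusted p = 0.003). With 15 of the 18 CDP arrays, leaving out that array alone took the adjusted p over 0.01 (up to 0.0551, without untreated CDP replicate 3). At 4, 8 and 12 h Klf4 differed by -0.52, -0.42 and -0.50, with adjusted p of 0.0156, 0.0316 and 0.0111. At 24 h, with arrays at 9.28, 9.66 and 9.64, it fell by 0.81 (SE 0.12, adjusted p = 0.000169). Klf2, Klf3 and Klf4 were thus the 3 members that passed at 24 h, against 19.8% of all genes, and the same 3 passed the F-test over the CDP times (20.6%). Leaving out any 1 of the 3 untreated CDP arrays left 1 member past that F-test.

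At 4 h no member passed limma's test in CDP, where 4.84% of all genes did, and 5 members had an unadjusted p under 0.05. Klf6 in CDP differed from untreated by -0.20, -0.29, -0.22, -0.24 and -0.10 at the 5 times. Its replicate 3 array at 2 h, at 10.35, lay far above replicates 1 and 2 at 9.74 and 9.79. Klf10 was higher by 0.27, 0.27, 0.35, 0.30 and 0.13, with the smallest adjusted p, 0.0153, at 8 h. Its untreated arrays, 9.77, 9.61 and 9.89, lay below all 3 arrays of 2, 4, 8 and 12 h, and overlapped those of 24 h (9.76, 9.80 and 10.11).

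Leaving out CDP 2 h replicate 3 changed which CDP members passed. Klf4 then fell at 4, 8 and 12 h too, by the same 0.52, 0.42 and 0.50, with SE of 0.06 in place of 0.12 and adjusted p of 4.68e-05, 0.000185 and 3.26e-05. Klf6 fell at 2, 4, 8 and 12 h, by 0.35, 0.29, 0.22 and 0.24 (adjusted p 0.00357, 0.00194, 0.00944 and 0.00456). Klf10 rose by 0.35 at 8 h (adjusted p = 0.00325) and by 0.30 at 12 h (adjusted p = 0.00678). The number of members that passed went from 1, 0, 1, 2 and 3 at the 5 times to 2, 2, 4, 5 and 3, and the share of all genes that passed went from 1.93%, 4.84%, 9.51%, 11.7% and 19.8% to 2.03%, 6.6%, 11.6%, 13.8% and 22%. The part of interferon signalling in these values was not tested.

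**Figure D3:**
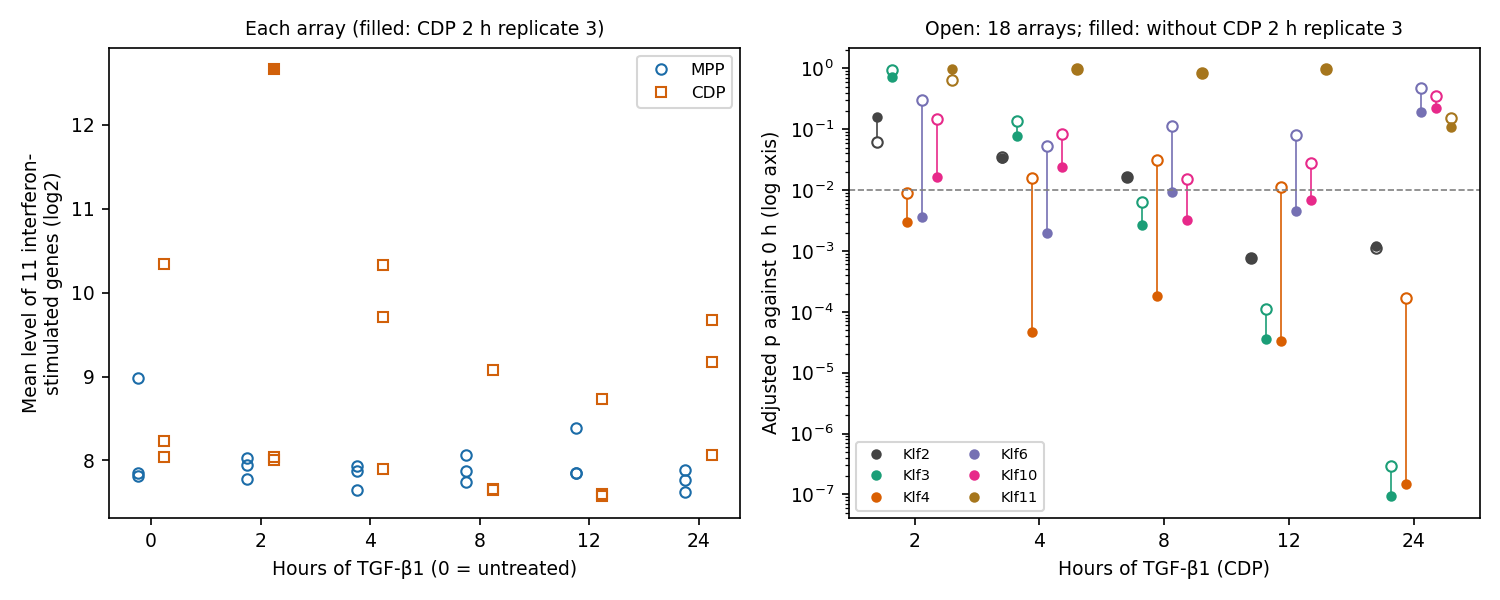
Left, mean level (log2) of 11 interferon-stimulated genes on each array against hours of TGF-β1, with CDP 2 h replicate 3 filled. Right, adjusted p (log axis) of each Klf gene in CDP against untreated CDP, open with all 18 CDP arrays and filled without that array, with a dashed line at 0.01; Klf4 drops from 0.0156 to 4.68e-05 at 4 h.

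Klf11 passed in no comparison. Its changes against 0 h ran from -0.12 to 0.14 over the 10 comparisons, with 95% intervals that reached no further than -0.25 and 0.25 and a smallest adjusted p of 0.115. Its arrays lay at 8.95, 9.04 and 8.97 in untreated MPP, 9.13, 9.07 and 9.18 at 8 h, and 8.96, 9.05 and 9.06 at 24 h. In CDP the untreated arrays were at 9.05, 9.06 and 9.13 and the 24 h arrays at 9.04, 8.85 and 8.97. The treated arrays lay above all untreated ones in MPP at 8 h, with a difference of 0.14 (95% interval 0.02 to 0.25), and below them in CDP at 24 h, with -0.12 (-0.25 to 0.00). Such a lack of overlap held for 21.7% of all genes in MPP at 8 h and for 35.9% in CDP at 24 h. The span of its 12 group means was 0.17, against 0.54 for Klf2, 0.65 for Klf3, 0.71 for Klf10, 0.92 for Klf6 and 1.00 for Klf4.

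The same RNA held large changes in known Smad targets. Of 15 measured genes of Smad feedback and early TGF-β response, 6 were called higher in MPP at 2 h and at 24 h, and 7 at 2 h and 5 at 24 h in CDP. The shares of all genes called higher at these times were 0.226% and 0.717% in MPP and 0.266% and 1.35% in CDP. Pmepa1, which traps Smads at membranes, rose by 3.56 at 2 h in MPP and 3.80 in CDP, and Spsb1, an adaptor that marks the TGF-β receptor for degradation, by 2.74 and 2.31. Ldlrad4, a relative of Pmepa1, rose by 1.53 and 1.81, and Skil, a Smad corepressor, by 1.65 and 1.92. The median change of the list at 2 h was 0.44 in MPP and 0.69 in CDP, where the median over all genes was 0.02 and -0.01.

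Before treatment MPP and CDP differed in Klf4, Klf6 and Klf10. These 3 of 6 members passed, against 14.1% of all genes. Klf4 was higher in CDP by 0.56 (SE 0.15, adjusted p = 0.00655) and Klf6 by 0.43 (SE 0.12, adjusted p = 0.00987). Klf10 was lower in CDP by a log2 difference of -0.33 (SE 0.09, adjusted p = 0.00573). The untreated CDP and MPP arrays did not overlap for these 3 genes and for Klf11, 4 of 6 members against 40.2% of all genes. These values were close to the threshold. The adjusted p was over 0.01 in 28 of 39 fits that left out arrays for Klf6, and in 6 of 39 for each of Klf4 and Klf10. Without untreated CDP replicate 2 the adjusted p was 0.0402 for Klf4, 0.0271 for Klf6 and 0.0639 for Klf10, and without untreated MPP replicate 1 it was 0.0372, 0.0714 and 0.0161, so that no member passed. Klf2 differed by 0.08 (95% interval -0.07 to 0.22), Klf3 by -0.02 (-0.16 to 0.13) and Klf11 by 0.09 (-0.03 to 0.21).
The sorted cells differed as labelled in Kit, the stem cell factor receptor (a log2 difference of -2.67 in CDP against MPP), and in Flt3, the cytokine receptor of dendritic progenitors (2.14 higher in CDP). Other progenitor and CDP markers differed less, such as Meis1 (9.68 in CDP, 9.86 in MPP) and Csf1r (12.80 and 12.65). By 24 h mean Kit was 11.42 in CDP and 11.16 in MPP. Neutrophil granule genes were also lower in CDP, 9 of 10 measured markers called against 1.55% of all genes called lower, with Mpo at -5.58 and Elane at -5.36. The part of such cells in the Klf4, Klf6 and Klf10 values was not tested.

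**Figure D4:**
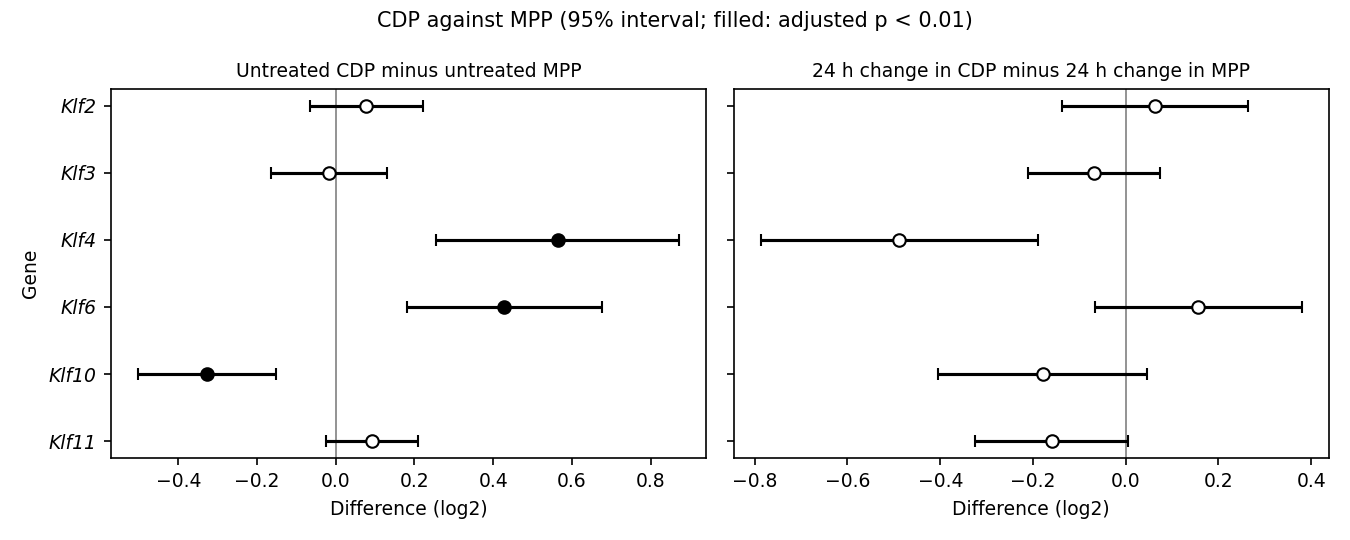
Left, log2 difference of each Klf gene between untreated CDP and untreated MPP. Right, the log2 change at 24 h in CDP minus that in MPP. Points carry 95% intervals and are filled where the adjusted p was under 0.01, which is so for Klf4, Klf6 and Klf10 on the left and for none on the right.

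Whether a member answered differently in the 2 cell types was tested as the change in CDP minus the change in MPP. No member passed at any time by limma, where 0.11% of all genes passed at 2 h, 0.607% at 4 h, 1.88% at 8 h, 3.13% at 12 h and 10.1% at 24 h. At an unadjusted p under 0.05, 3, 1, 0, 0 and 1 members did, against 9.08%, 9.31%, 14.6%, 14.3% and 25% of all genes. The 24 differences at 2 to 12 h lay between -0.31 and 0.29, with a smallest adjusted p of 0.319. At 24 h Klf4 had a difference of -0.49 (95% interval -0.79 to -0.19, adjusted p = 0.0208), Klf10 -0.18 (-0.40 to 0.05), Klf11 -0.16 (-0.33 to 0.01), Klf3 -0.07 (-0.21 to 0.07), Klf2 0.06 (-0.14 to 0.26) and Klf6 0.16 (-0.07 to 0.38). Without CDP 2 h replicate 3, the Klf4 difference was again -0.49 and its adjusted p was 0.00017. The 24 h means of Klf4 were 9.53 in CDP and 9.45 in MPP, with overlapping arrays.

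Among the other family members, 11 more Klf and 8 Sp genes, whose products bind similar GC-rich sites, were measured. At most 2 of the 11 Klf genes passed at any time in MPP and 1 in CDP, and none was called against 0 h. The share of all genes that passed was 3.27% to 9.71% in MPP and 1.93% to 19.8% in CDP. The genes named here, except Klf9, were chosen after their values were seen. Klf7 fell in MPP at all 5 times, by 0.62 at 2 h (adjusted p = 0.000559) and by 0.50 at 24 h (adjusted p = 0.00124). Its adjusted p at the 5 times was over 0.01 in 1, 1, 4, 6 and 3 of 21 fits that left out arrays. The same was so in 1, 1, 1, 2 and 1 of 6 other settings, and the highest value at each time was 0.0392 to 0.15. Klf9, a factor induced by glucocorticoids and thyroid hormone, rose in MPP by 0.47 at 2 h (adjusted p = 0.000104) and by 0.35 at 24 h. The adjusted p of each was over 0.01 in 1 of 21 such fits and in 1 of 6 other settings (up to 0.0272 and 0.0464). In CDP Klf9 rose by 0.66 at 2 h (adjusted p = 0.00572). The CDP value was lost in 10 of 21 fits that left out arrays (0.47 to 0.89, adjusted p up to 0.175) and had an adjusted p of 0.307 without the replicate block. Klf9 was also the only one of these 19 genes called between the untreated cells, at 8.84 in CDP and 10.09 in MPP, a difference of -1.25 (SE 0.20, adjusted p = 1.65e-05). Klf8 rose in CDP by 0.33 at 12 h and by 0.63 at 24 h (adjusted p = 8.73e-06). Of the Sp genes, Sp4 rose by 0.32 in MPP at 24 h (adjusted p = 0.00268), with an adjusted p over 0.01 in 6 of 21 such fits (up to 0.0776). Sp7, better known from bone, rose in CDP by 0.63 at 2 h (adjusted p = 0.00216) and 0.44 at 8 h. The adjusted p of these 2 Sp7 values was over 0.01 in 6 and 13 of 21 such fits.

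**Figure D5:**
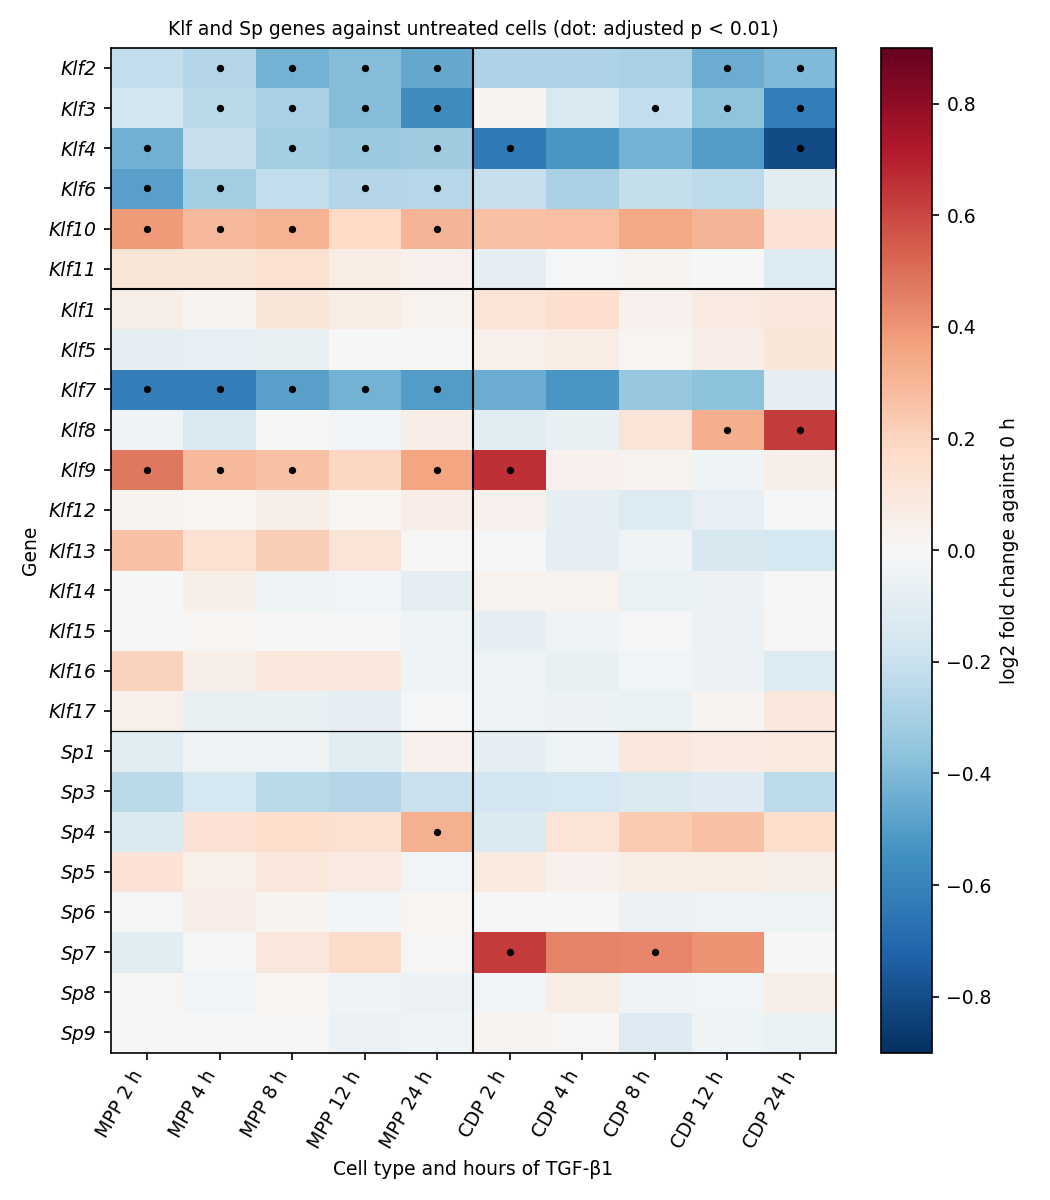
Colour gives the log2 fold change against untreated cells of the same type for the 6 Klf genes (top), 11 other Klf genes and 8 Sp genes (rows) at each time in MPP and CDP (columns), with a dot where the adjusted p was under 0.01. The 6 genes at the top hold 27 dots, and Klf7, Klf8, Klf9, Sp4 and Sp7 hold the others.

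Of 7 ubiquitin ligases known to act on Klf proteins, Smurf1 and Smurf2 rose at all times in both cell types and passed as 2 of 7 at 24 h. At that time 9.71% of all genes passed in MPP and 19.8% in CDP. Smurf1, which also degrades TGF-β receptors, rose in CDP by 1.83 at 24 h (SE 0.14, adjusted p = 1.6e-07) and in MPP by 0.46, and Smurf2 by 0.90 and 0.35. Wwp1 fell in CDP by 0.36 at 2 h and by 0.35 at 4 h, and in MPP by 0.34 at 12 h. Siah1a, Siah1b, Itch and Fbxw7 did not pass at any time. Of 13 Klf cofactors, none passed at 24 h in MPP and 2 did in CDP, the deacetylases Hdac1 (0.23 higher) and Hdac2 (-0.38), beside the same 9.71% and 19.8%. The histone demethylase gene Kdm5b fell by 0.42 in MPP at 2 and 4 h, and differed between untreated CDP and MPP by -1.15 (SE 0.18, adjusted p = 9.2e-06). Smurf2, Wwp1, Hdac1 and Hdac2 were named after their values were seen.

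Klf2 has a known route of control, in which the kinases Map2k5 and Mapk7 act through Mef2 factors and Foxo1 acts at the promoter. Of these 7 measured genes, 2 were higher at 24 h in each cell type, where 5.61% of all genes rose in MPP and 7.83% in CDP. Mapk7 fell in CDP at 2 h by 0.26 (adjusted p = 0.00234). Foxo1 rose by 0.51 in MPP (SE 0.10, adjusted p = 0.00174) and 0.84 in CDP (SE 0.10, adjusted p = 1.32e-05), Mef2c by 0.42 in MPP and Mef2a by 0.23 in CDP. Before treatment Mef2c was 1.10 higher in CDP than in MPP (SE 0.11, adjusted p = 3.51e-09) and Foxo1 0.85 higher, and Klf2 differed by 0.08. The part of this route in the Klf2 values was not tested. Of 5 measured Klf2 targets, S1pr1, the receptor that lets lymphocytes leave tissue, rose in MPP by 0.74 at 2 h, 1.28 at 8 h and 1.32 at 24 h (SE 0.11, adjusted p = 4.26e-07). In CDP S1pr1 rose by 0.61 at 4 h and 0.45 at 8 h. Thbd, which encodes thrombomodulin, fell in CDP by 1.18 at 24 h (SE 0.20, adjusted p = 0.000313). Itgb7, an integrin chain held down by Klf2 in T cells, was 1.68 higher in untreated CDP than in MPP (adjusted p = 8.21e-08). Nos3 and Edn1, the other measured targets, passed neither against 0 h nor between the untreated cells. At 24 h S1pr1 was the only target to pass in MPP and Thbd the only one in CDP, where 9.71% and 19.8% of all genes passed. Foxo1, Mef2a and Mapk7 were named after their values were seen.

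Several Klf genes are also serum-responsive immediate early genes, so 17 other genes of that class were set beside them. At 24 h 7 of the 17 fell in MPP and none rose, and in CDP 5 fell and 1 rose, with medians of -0.23 and -0.02. Of all genes, 4.09% fell and 5.61% rose in MPP then, and 11.9% fell and 7.83% rose in CDP. Atf3 fell by 1.19 in MPP and by 2.19 in CDP, and Ier3 fell by 1.13 in MPP (adjusted p = 1.59e-05). At 2 h 1 of the 17 rose and none fell in MPP, and in CDP none rose and 1 fell. Of all genes, 2.26% rose and 1% fell in MPP at 2 h, and 1.12% rose and 0.808% fell in CDP. Jun and Btg2 were 1.33 and 1.32 higher in untreated CDP than in MPP. Klf2, Klf4 and Klf6 are often counted in this class and were left out of the 17.

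Monocyte and macrophage markers, like Klf2, Klf3 and Klf4, were lower at 24 h than at 0 h in both cell types. The marker mean declined from each time to the next, while Klf4 in MPP had its lowest mean at 2 h. The mean level of the 9 measured markers was 10.68 to 11.07 on untreated MPP arrays and 9.82 to 10.18 at 24 h, and 10.74 to 11.11 on untreated CDP arrays and 8.99 to 9.38 at 24 h. At 24 h 7 of the 9 fell in MPP and 8 in CDP, with medians of -0.87 and -1.57. Of all genes, 4.09% fell and 5.61% rose in MPP at 24 h, and 11.9% fell and 7.83% rose in CDP. Adgre1, which encodes a macrophage surface antigen, fell by 1.20 in MPP and fell by 3.44 in CDP, and Msr1, a scavenger receptor, fell by 2.15 in MPP and by 1.55 in CDP. F13a1 fell by 3.22 in CDP and the mannose receptor Mrc1 fell by 2.33. In bulk samples fewer cells of a type and less RNA per cell cannot be told apart. Their part in the Klf changes was not tested. At 24 h, none of 7 T and NK cell markers passed in CDP and 1 fell in MPP, none of 4 erythroid markers passed in either, and of 4 B cell markers 1 (Cd79b) fell in CDP and none passed in MPP. Of 7 mast cell and basophil markers, 3 fell in MPP and 1 (Cpa3) rose in CDP at 24 h, of 5 progenitor markers 2 rose in MPP and 3 rose and 1 fell in CDP, of 5 CDP markers 2 rose in MPP and 2 rose and 1 fell in CDP, and of 10 neutrophil markers 4 rose and 1 fell in MPP and 1 rose and 3 fell in CDP.

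Genes with the most similar pattern were found by Pearson's r over the 12 group means, among 2098 genes whose means spanned at least 1. For Klf3 they were Cd300ld (r = 0.97), Clec4a3 (0.96) and Ifitm6 (0.96), whose own group means spanned 4.23, 3.94 and 3.15. For Klf2 they were Pirb (0.95), Ankrd55 (0.94) and Il6st (0.92), and for Klf4 Rnd3 (0.96), Ipcef1 (0.96) and Scel (0.92). Klf6 was nearest to Ifi203 (0.99), Klrb1f (0.97) and Filip1l (0.97), and Klf10 to Dpy19l4 (0.95), Rai14 (0.94) and Slco4a1 (0.94). Klf11, with its small span, reached 0.72 with each of Lrp1, Baiap2 and Ddit4. Within a cell type some of these were lower. Scel with Klf4 had r = 0.52 in MPP and 0.95 in CDP, and Klrb1f with Klf6 had 0.94 and 0.69. Among the members, Klf2 and Klf3 had r = 0.78 over the 12 group means, Klf2 and Klf4 0.72, and Klf6 and Klf10 -0.96. Over the MPP changes against 0 h alone, these pairs had r of 0.85, -0.17 and -0.60. The points share the untreated groups and the difference between cell types, so these values are a description. The CDP 2 h means include replicate 3, the array with high interferon-stimulated genes, where Klf6 read 10.35 against 9.74 and 9.79. No r was taken without that array.

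In the order of group means, neighbouring groups mostly overlapped. For Klf4 only the top step was clear, from CDP at 8 h (9.91) to untreated CDP (10.34), and for Klf10 only the step from CDP at 8 h (10.10) to MPP at 12 h (10.26). For Klf6 the 6 MPP groups ranked below the 6 CDP groups, with untreated MPP (9.74) next to CDP at 4 h (9.88), and no neighbours were separated. For Klf2 the arrays did not overlap at the step from CDP at 2 h (8.17) to untreated MPP (8.37), nor, by a far smaller gap, at that from MPP at 8 h (7.95) to MPP at 12 h (7.98), and for Klf3 the step from MPP at 24 h (10.26) to MPP at 12 h (10.43). No neighbours were separated for Klf11.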

How the data were processed

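RNA of 36 samples was hybridised to Affymetrix Gene 1.0 ST arrays. The authors deposited log2 values for 35556 probe sets. The submitters' processing notes name RMA and Affymetrix Power Tools (versions not given in the sources used here), while the study's methods name FARMS, and which of them made these values was not tested. Of the probe sets, 21789 had 1 gene symbol in the platform annotation, and the probe set with the highest mean stood for each of 19938 genes. Differences were tested with limma 3.58.1 in R 4.3.3 on those log2 values with Benjamini-Hochberg adjustment over all genes, at an adjusted p under 0.01, with and without a log2 change of at least 1. Fits within a cell type (18 arrays) held the replicate number as a block, since same-numbered arrays deviated together in all 15 pairs of a time with 0 h in MPP (r 0.19 to 0.60) and in all 15 in CDP (0.21 to 0.68). The untreated comparison used 36 arrays and no block, as the labels do not pair the cell types. Same-numbered MPP and CDP arrays correlated at 0.51, 0.28 and 0.42 at 0 h and at over 0.1 in 11 of 18 pairs over all times, and with the number as a block the same count of 3 members passed. The difference of responses used 36 arrays with the replicate within cell type as a block. Named were the 6 members, other Klf and Sp genes that were called, at most 4 called genes of each other list with the largest change, and the 3 genes most like each member. The members and 18 gene lists were chosen with earlier results of these data known, and 11 listed genes were not measured. The test was tried on simulated data. Alternatives covered the block, threshold, variance model, centring and left-out arrays, and leaving out every CDP replicate 3 array was added after seeing the data. The number of arrays limits the precision. The labels and the methods name different RNA kits.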

Additional observations from a re-analysis of the deposited data

Results flagged for a closer look

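The response of 2 other family genes differed between the cell types. The change of Sp7 at 2 h was 0.73 higher on the log2 scale in CDP than in MPP (SE 0.13, limma adjusted p = 0.00848), and that of Klf8 at 24 h was 0.57 higher (SE 0.09, adjusted p = 6.5e-05). The Sp7 value was over the threshold of 0.01 in 28 of 39 fits that left out arrays (adjusted p up to 0.178) and in 3 of 6 other settings, and the Klf8 value in 1 of 39 (0.0114, without replicate 1). Both were picked out by the test of the difference itself.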

How the results depend on the processing

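No member was called with the fold minimum under any of the settings that kept it, of 48 tried. With the fold minimum dropped, the counts were 20 (MPP, each time), 7 (CDP, each time), 5 and 3 (time course in MPP and CDP), 2 and 1 (24 h against 2 h) and 3 (untreated cells), against 0 with it. Without the replicate block, which pairs arrays by number, the MPP counts were 8 in place of 20 (each time), 3 in place of 5 (time course) and 1 in place of 2 (24 h against 2 h); this last was also 1 with a variance trend and robust fit and with arrays centred on their medians. Leaving out untreated MPP replicate 3 and CDP 2 h replicate 3 together gave 16 in CDP at each time, 5 in the CDP time course, 3 for CDP 24 h against 2 h and 1 for the response difference (0 with all arrays). Without every CDP replicate 3 array the counts were 2 for CDP 24 h against 2 h, 1 for untreated cells and 1 for the response difference, and Klf11 in CDP at 4 h turned from -0.01 to 0.01. Leaving out replicates gave 4 to 20 (MPP, each time), 2 to 16 (CDP, each time), 1 to 5 in both time courses, 0 to 2 and 1 to 3 (24 h against 2 h in MPP and CDP), 0 to 3 (untreated) and 0 to 1 (response difference). Small differences changed sign in these: Klf3 in CDP at 2 h (-0.0072 to 0.076), Klf11 in CDP at 4 h (-0.046 to 0.011), 8 h (-0.015 to 0.056), 12 h (-0.060 to 0.053) and 24 h against 2 h (-0.092 to 0.041), Klf4 in CDP at 24 h against 2 h (-0.40 to 0.012), Klf2 and Klf3 between untreated cells (-0.0097 to 0.14 and -0.086 to 0.060) and the Klf2 response difference at 24 h (-0.050 to 0.15). The cause was not tested. Groups of 3 arrays limit the precision throughout.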
